A study of Mus musculus with 18 samples.

Results

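The 8 genes Dbp, Tef, Hlf, Nfil3, Ciart, Bhlhe40, Bhlhe41 and Wee1 are output genes of the circadian clock and regulators of the DNA elements through which it acts. They were taken by symbol from the 32675 genes of the deposited table, and all 8 passed the filter on low counts that left 20251 genes to be tested. The genes were chosen by their known place in the clock with earlier results of these same mice in view, among them the low values of Ciart and Dbp in the FLX group, so their fold changes and adjusted p values are given as a description of the 3 groups and not as independent evidence. RNA of the right kidney was sequenced from 18 male wild-type C57BL/6 mice, with 6 mice in each of the groups Ctrl, PBS and FLX, all labelled with an age of 6 weeks. Ctrl mice were handled daily in the same kind of cage and were neither defeated nor injected. PBS mice went through chronic social defeat stress (CSDS), in which a mouse is put daily with an aggressive CD-1 resident and then kept behind a perforated divider beside it, and they received a daily intraperitoneal injection of phosphate-buffered saline. FLX mice went through the same CSDS and received fluoxetine, a selective serotonin reuptake inhibitor, dissolved in the same saline. The design has no injected group without CSDS and no group given fluoxetine without CSDS, so stress and injection cannot be told apart in PBS versus Ctrl. In FLX versus Ctrl, stress, injection and fluoxetine cannot be told apart. The behavioural tests came between the defeats and the removal of the kidneys. Mice lived on a light-dark cycle, and the sources used here do not give the hour at which each kidney was taken.

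The clock of each cell is a loop in which the proteins CLOCK and BMAL1 (the product of Arntl) switch genes on through E-boxes, among them their own repressors of the PER and CRY families. Dbp, Tef and Hlf encode the PAR bZIP activators, a family of basic leucine zipper proteins with a proline- and acid-rich domain, which bind D-boxes and drive daily rhythms of detoxification and transport genes in the kidney and the liver. NFIL3, also called E4BP4, binds the same D-boxes as a repressor, and its own gene is controlled through ROR elements, where the activators of the ROR family and the repressors REV-ERBα (Nr1d1) and REV-ERBβ (Nr1d2) compete. CIART, also called CHRONO, binds BMAL1 and represses it, and BHLHE40 and BHLHE41, also called DEC1 and DEC2, compete with CLOCK and BMAL1 for E-boxes. WEE1 is the kinase that holds CDK1 inactive before mitosis, and its gene is a known E-box target.

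Promoters of 6 of the 8 genes were matched in the RefSeq table of the build GRCm38.p6, each of 300 bases from 250 before to 50 after the start site. Bhlhe40 and Wee1 were not matched. The 3 promoters below belong to the genes with the largest differences between the groups and show how unlike their elements are. Capitals mark an E-box (CACGTG) in Ciart and the core of a ROR element (TAGGTCA, read here on the opposite strand) in Nfil3.
Ciart, chr3:95882179-95882478, minus strand: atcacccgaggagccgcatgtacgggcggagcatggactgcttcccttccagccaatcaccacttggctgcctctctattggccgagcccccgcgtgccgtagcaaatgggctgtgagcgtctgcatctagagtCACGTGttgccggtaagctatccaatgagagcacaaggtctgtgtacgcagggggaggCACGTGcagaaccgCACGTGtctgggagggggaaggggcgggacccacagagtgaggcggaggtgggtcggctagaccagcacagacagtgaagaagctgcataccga
Nfil3, chr13:52980990-52981289, minus strand: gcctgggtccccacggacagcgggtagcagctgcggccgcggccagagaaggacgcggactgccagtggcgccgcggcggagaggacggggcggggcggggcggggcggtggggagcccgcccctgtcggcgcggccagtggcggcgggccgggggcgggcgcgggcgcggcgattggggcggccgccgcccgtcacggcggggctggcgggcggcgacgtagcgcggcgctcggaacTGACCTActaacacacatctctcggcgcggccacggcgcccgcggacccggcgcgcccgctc
Dbp, chr7:45704997-45705296, plus strand: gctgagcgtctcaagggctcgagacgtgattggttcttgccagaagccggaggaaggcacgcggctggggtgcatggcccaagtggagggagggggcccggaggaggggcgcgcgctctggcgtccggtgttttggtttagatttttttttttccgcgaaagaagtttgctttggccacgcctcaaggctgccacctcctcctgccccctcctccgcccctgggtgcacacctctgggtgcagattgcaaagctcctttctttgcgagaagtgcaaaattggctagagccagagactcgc

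The Ciart promoter held 3 E-boxes, whose first bases lie at positions -116, -58 and -44 relative to the start site. An E-box stood in 7.15% of the 32851 promoters of this length, and 3 or more stood in 0.0883%. Each of the 2 Tef promoters held 1 E-box, at positions -127 and -138, and the Bhlhe41 promoter held 1 at position -153. The windows of Dbp, Hlf and Nfil3 held none. The ROR element core stood in the Nfil3 promoter at position -12 and in 2.61% of all promoters. No member promoter held a D-box (TTATGTAA or TTACGTAA), which stood in 1.06% of promoters. Both strands were searched, no match overlapped another, and a window without a match says only that these letters are not in it.

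Libraries held 72149987 to 79061296 estimated counts in 14 mice and 48928823 to 52073640 in FLX replicates 3 to 6. Markers of the tubule segments, the podocytes and the endothelium were present in every mouse, and 0 of them were called in any comparison at an adjusted p under 0.05 with edgeR. PBS replicate 6 stood apart with neutrophil markers that summed to 59.2 FPKM, against 6.57 to 25.5 in the other 5 PBS mice, and with 427 FPKM of proximal tubule markers, against 792 to 981. The study left out 1 PBS mouse that it did not name. PBS replicate 6 was taken to be that mouse, values are given first for the other 17 mice, and calls that changed with all 6 PBS mice are named. In these whole-kidney samples, fewer cells of a type and less RNA per cell cannot be told apart.

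FPKM, the number of fragments per transcript length and library size, is a level per length, so genes can be ranked by it. In the Ctrl group Tef had the highest mean level, 28.6 ± 4.60 FPKM (SD, n = 6). Dbp at 15.9 ± 5.07 and Bhlhe40 at 15.7 ± 2.79 overlapped each other, and Hlf followed at 9.98 ± 1.21. Nfil3 at 2.27 ± 1.07 and Wee1 at 2.26 ± 0.512 overlapped as well, and Ciart at 1.12 ± 0.421 and Bhlhe41 at 0.335 ± 0.124 were lowest. In the FLX group the order differed, with Bhlhe40 at 20.5 ± 2.40 FPKM, Tef at 17.6 ± 1.73 and Nfil3 at 12.7 ± 3.47 above Hlf at 8.09 ± 0.993. Wee1 at 2.81 ± 0.639 then came before Dbp at 1.14 ± 0.355, and Ciart at 0.272 ± 0.0970 and Bhlhe41 at 0.216 ± 0.144 overlapped. In mean level, Dbp thus went from the 3 highest of these genes in Ctrl mice to the 3 lowest in FLX mice. The mean of Nfil3 went from below that of Hlf to above it.

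**Figure D1:**
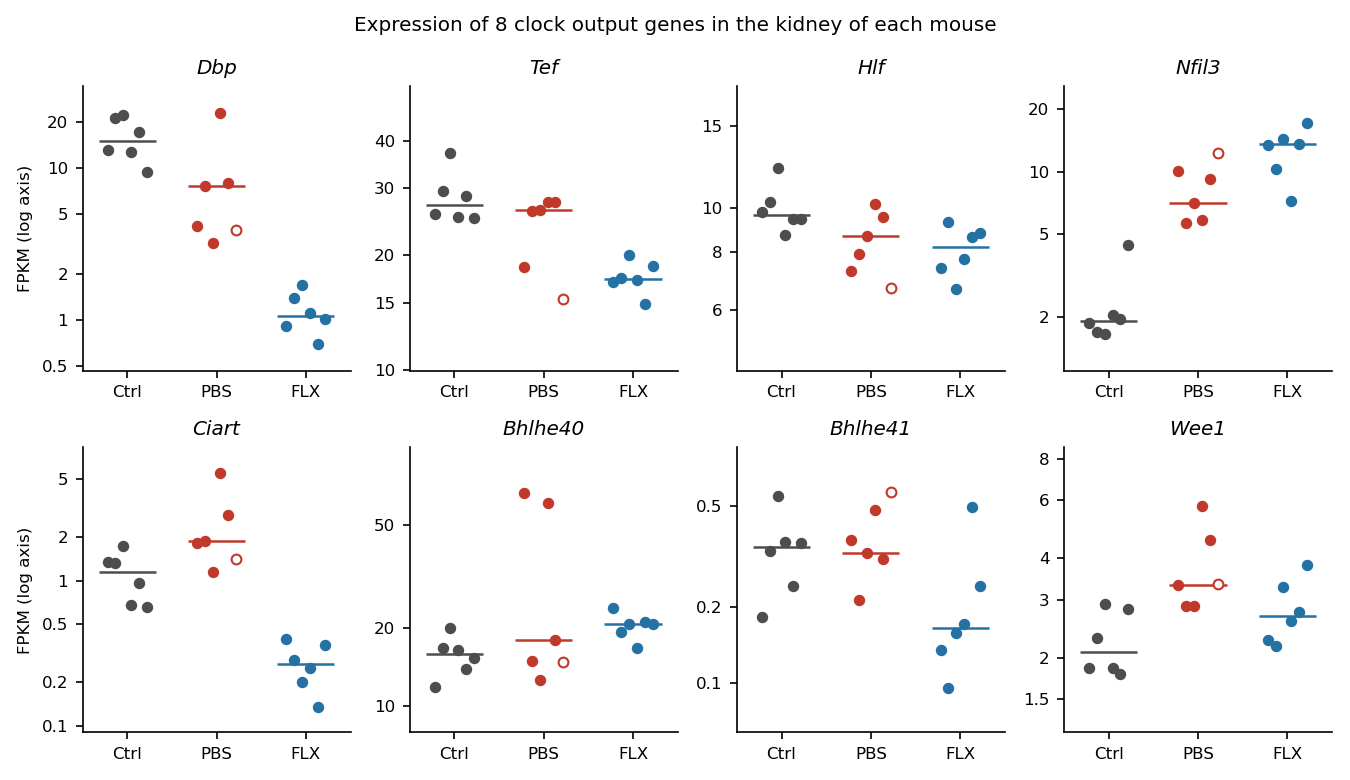
Level of each of the 8 genes in each mouse, in FPKM on a log axis, by group. Filled points are the 17 mice of the main values, the open point is PBS replicate 6, and bars are medians over the filled points. All 6 FLX mice lie below every other mouse for Dbp and Ciart, and every defeated mouse lies above every Ctrl mouse for Nfil3.

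Dbp encodes the PAR bZIP activator with the strongest daily rhythm in many organs (ENSMUSG00000059824, chr7:45705088-45710203). Its level was 13.1, 21.2, 22.1, 12.7, 17.1 and 9.39 FPKM in Ctrl replicates 1 to 6. It was 4.16, 7.60, 3.23, 23.0 and 7.90 FPKM in PBS replicates 1 to 5 and 3.89 in PBS replicate 6. In FLX replicates 1 to 6 it was 0.917, 1.39, 1.69, 1.11, 0.694 and 1.02 FPKM. PBS replicate 4 was above every Ctrl mouse while the other PBS mice were below them all, and no FLX mouse reached the lowest mouse of another group. The FLX level was 8.69-fold below that of PBS, with -3.12 on the log2 scale (standard error, SE, 0.43, adjusted p = 0.00218 in edgeR's quasi-likelihood test over all 20251 genes), and 14.7-fold below that of Ctrl (-3.88, SE 0.43, adjusted p = 0.000147). With all 6 PBS mice the log2 fold change in FLX versus PBS was -2.97 (adjusted p = 0.0107). Between PBS and Ctrl it was -0.76 (SE 0.40, adjusted p = 0.34), and it became -1.49 (adjusted p = 0.0151) without PBS replicate 4. PBS mice therefore spread over a 7.12-fold range in Dbp, against 2.36-fold in Ctrl and 2.43-fold in FLX. Dbp shares 737 bases with its neighbour Sphk2 on the opposite strand, which had a median of 8.77 FPKM. The strand setting of the count was not found in these sources, so reads of the shared stretch are uncertain.

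Tef, the second activator, is expressed at a high and steady level (ENSMUSG00000022389, chr15:81802421-81826863). Its levels were 25.7, 29.6, 37.2, 25.2, 28.7 and 25.1 FPKM in Ctrl mice, 18.6, 26.1, 26.3, 27.6 and 27.7 in PBS replicates 1 to 5, and 17, 17.4, 20.1, 17.2, 14.9 and 18.7 in FLX mice. The FLX mice were all below the Ctrl mice, and among the PBS mice only replicate 1 fell in the FLX range, as did the left-out replicate 6 at 15.4 FPKM, nearly the lowest value of all. Tef had log2 fold changes of -0.78 in FLX versus Ctrl (SE 0.11, adjusted p = 0.0014) and -0.61 in FLX versus PBS (SE 0.12, adjusted p = 0.019). The latter call was lost with all 6 PBS mice (-0.51, adjusted p = 0.109) and without PBS replicate 4 (-0.56, adjusted p = 0.07). The log2 difference between PBS and Ctrl was -0.17 (SE 0.12, adjusted p = 0.481).

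Hlf, the third activator, overlapped between the groups (ENSMUSG00000003949, chr11:90336536-90390895). It ranged from 8.71 to 12.2 FPKM in Ctrl (median 9.62), from 7.30 to 10.2 in PBS (median 8.67, and 6.71 in replicate 6) and from 6.66 to 9.30 in FLX (median 8.20). The 3 ranges overlapped. Its fall of 0.39 on the log2 scale in FLX versus Ctrl (SE 0.10, adjusted p = 0.0404) was lost in 17 of 31 alternatives, including that with all 6 PBS mice (adjusted p = 0.0807) and those without any 1 of FLX replicates 1, 3, 4, 5 and 6. The differences in PBS versus Ctrl (-0.18, adjusted p = 0.384) and FLX versus PBS (-0.20, adjusted p = 0.51) did not pass the test.

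The summed level of the 3 activators was 44.0 to 71.5 FPKM in Ctrl, 30.0 to 60.8 in PBS and 24.3 to 28.5 in FLX mice. Dbp made up 21.4% to 34.7% of this sum in Ctrl, 8.45% to 37.8% in PBS and 2.85% to 5.94% in FLX. Tef made up 48.4% to 57.1% in Ctrl, 45.5% to 68.8% in PBS and 61.5% to 70.7% in FLX mice. PBS replicates 1, 2 and 3, at 61.9%, 62.7% and 68.8%, fell in the FLX range of the Tef share. Tef thus had the largest mean share in all 3 groups, with 52.8% in Ctrl, 60% in PBS and 65.5% in FLX mice. Most of the remainder was Hlf in FLX mice, and their range of the Dbp share lay below those of the other groups.

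Nfil3, the repressor of D-boxes, was higher in both groups of defeated mice (ENSMUSG00000056749, chr13:52967209-52981073). Ctrl replicates 1 to 5 had 1.86, 1.70, 1.65, 2.04 and 1.95 FPKM, and Ctrl replicate 6 had 4.43. PBS replicates 1 to 5 had 10.1, 5.63, 7.08, 5.84 and 9.22 FPKM, and replicate 6 had 12.3. FLX mice had 13.4, 10.3, 14.3, 7.25, 13.6 and 17.2 FPKM. All defeated mice were above all Ctrl mice, and the PBS and FLX ranges overlapped. Nfil3 was 3.33-fold higher in PBS than in Ctrl mice (log2 fold change 1.74, SE 0.26, adjusted p = 0.000965) and 5.27-fold higher in FLX than in Ctrl mice (2.40, SE 0.26, adjusted p = 0.000147). Both calls held in all 31 alternatives, with log2 fold changes of 1.41 to 2.03 and 2.07 to 2.70. The log2 difference of 0.66 in FLX versus PBS (SE 0.26, adjusted p = 0.311) did not pass in any of them.

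Because the activators and NFIL3 bind the same element, their balance was followed mouse by mouse. The ratio of Dbp to Nfil3 in FPKM was 2.12 to 13.4 in Ctrl (median 7.89), 0.413 to 3.93 in PBS (median 0.857, and 0.317 in replicate 6) and 0.0508 to 0.153 in FLX (median 0.0931). The 3 activators together exceeded Nfil3 by 9.92-fold to 43.3-fold in Ctrl, 2.99-fold to 10.4-fold in PBS and 1.66-fold to 3.60-fold in FLX mice. The FLX range lay wholly below the others for the former ratio. For the latter, PBS replicates 1 and 6 fell in the FLX range and PBS replicate 4 in the Ctrl range.

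**Figure D2:**
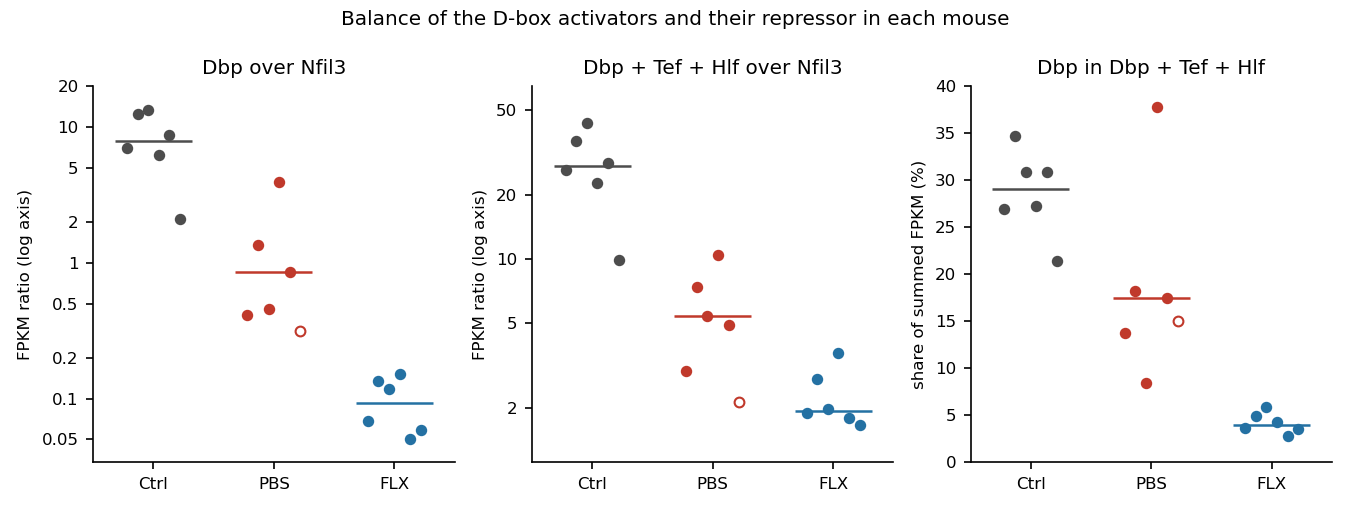
Ratio of Dbp to Nfil3 and of Dbp, Tef and Hlf together to Nfil3, both in FPKM on log axes, and the share of Dbp in the summed FPKM of the 3 activators in percent, for each mouse by group. Filled points are the 17 mice of the main values, the open point is PBS replicate 6, and bars are medians over the filled points. The Dbp to Nfil3 ratio is 0.0508 to 0.153 in FLX mice against 2.12 to 13.4 in Ctrl mice.

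Ciart, the gene of the repressor of BMAL1, was lower in FLX mice than in both other groups (ENSMUSG00000038550, chr3:95878503-95882231). It stood at 1.35, 1.33, 1.72, 0.679, 0.966 and 0.659 FPKM in Ctrl mice, at 1.81, 1.87, 1.14, 5.47 and 2.83 in PBS replicates 1 to 5, and at 1.41 in PBS replicate 6. FLX mice had 0.395, 0.284, 0.202, 0.251, 0.136 and 0.361 FPKM. The FLX group overlapped neither of the others, and PBS replicate 4 was the highest mouse, as for Dbp, with a summed neutrophil level of 25.5 FPKM whose part in these values was not tested. Ciart was 10.2-fold lower in FLX than in PBS (-3.35 on the log2 scale, SE 0.39, adjusted p = 0.000808) and 4.27-fold lower than in Ctrl (-2.09, SE 0.37, adjusted p = 0.006). With all 6 PBS mice the former was -3.23 (adjusted p = 0.00239). Unlike Dbp, Ciart had a positive log2 difference in PBS versus Ctrl, 1.26 (SE 0.36, adjusted p = 0.0619), and 4 of 5 PBS mice exceeded the highest Ctrl mouse. This difference passed the threshold in 5 of 31 alternatives, among them DESeq2 (adjusted p = 0.0104). Its estimated counts were 19 to 83 per FLX mouse, against 130 to 352 in Ctrl mice. The whole gene lies opposite C920021L13Rik, which had at most 1.05 FPKM in any mouse, so reads of the 2 strands cannot be told apart here.

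Bhlhe40, which encodes DEC1, split the PBS group (ENSMUSG00000030103, chr6:108660629-108666925). PBS replicates 1 and 4 had 66.5 and 60.7 FPKM, whereas PBS replicates 2, 3, 5 and 6 had 14.9, 12.6, 18.1 and 14.8. Ctrl mice ranged from 11.9 to 20 FPKM (median 15.9) and FLX mice from 16.8 to 24 (median 20.8). The log2 fold changes of 1.17 in PBS versus Ctrl (SE 0.36, adjusted p = 0.0756) and -0.87 in FLX versus PBS (SE 0.35, adjusted p = 0.337) did not pass, and without PBS replicates 1 and 4 they were -0.07 and 0.37. The difference of 0.30 in FLX versus Ctrl had an adjusted p of 0.66 in the model of 3 groups, whose spread holds the split PBS group, and of 0.154 in a fit of the 2 groups alone. It was not called in any of the 31 alternatives. In the exact two-sided permutation test of mean log2(FPKM + 0.1) this difference gave p = 0.013, not adjusted, with 4 of 6 FLX mice above every Ctrl mouse. These 4 mice had 20.7 to 24 FPKM, against 20 in the highest Ctrl mouse. The permutation test used FPKM without the scaling of the fit, and the part of the unit in this p was not tested.

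Bhlhe41, which encodes DEC2, was the least expressed member (ENSMUSG00000030256, chr6:145858243-145865558). It ranged from 0.182 to 0.543 FPKM in Ctrl, from 0.213 to 0.478 in PBS (0.564 in replicate 6) and from 0.0959 to 0.493 in FLX. In FLX replicates 1 to 6 it was 0.135, 0.0959, 0.157, 0.171, 0.493 and 0.242 FPKM, so that 4 of 6 FLX mice were below every Ctrl mouse and replicate 5 was near the top of the Ctrl range. Its log2 differences of -0.72 in FLX versus Ctrl (adjusted p = 0.239, 95% confidence interval -1.43 to -0.01), -0.76 in FLX versus PBS (adjusted p = 0.434) and 0.04 in PBS versus Ctrl (adjusted p = 0.972) did not pass. The last of these was below 0 with upper-quartile scaling (-0.01). Of its bases 1876 are shared with Gm43909 on the opposite strand, which had at most 0.287 FPKM, and Tef and Bhlhe40 share 193 and 306 bases with Gm17597 and 0610040F04Rik, which had at most 1.63 and 3.54 FPKM.

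Wee1, the mitotic kinase gene, was higher in PBS mice (ENSMUSG00000031016, chr7:110122046-110143286). Its levels were 1.86, 2.30, 2.92, 1.86, 1.78 and 2.82 FPKM in Ctrl, 3.32, 2.88, 2.87, 5.79 and 4.56 in PBS replicates 1 to 5, 3.34 in replicate 6, and 2.26, 2.17, 3.28, 2.58, 2.76 and 3.83 in FLX. PBS replicate 4 was again the highest mouse, and 3 of 5 PBS mice were above every Ctrl mouse. Wee1 was 1.74-fold higher in PBS than in Ctrl mice (log2 fold change 0.80, SE 0.20, adjusted p = 0.0331, and 0.76 with adjusted p = 0.033 over all 6 PBS mice). The call was lost in 11 of 31 alternatives, with the highest adjusted p for 1 mouse left out, 0.115, without PBS replicate 4. The log2 differences of -0.57 in FLX versus PBS (adjusted p = 0.252) and 0.24 in FLX versus Ctrl (adjusted p = 0.534) did not pass. Of the 6 listed genes around WEE1 at the entry into mitosis (Pkmyt1, Cdk1, Ccnb1, Cdc25a, Cdc25b and Cdc25c), 0 were called in any of the 3 comparisons with edgeR or DESeq2, and 1, 2 and 1 had an unadjusted p under 0.05 in PBS versus Ctrl, FLX versus PBS and FLX versus Ctrl. Pkmyt1, Cdk1, Ccnb1 and Cdc25c had low means in every group, the highest 0.317 FPKM for Cdk1 in PBS replicates 1 to 5. A missing call therefore says little for them.

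**Figure D3:**
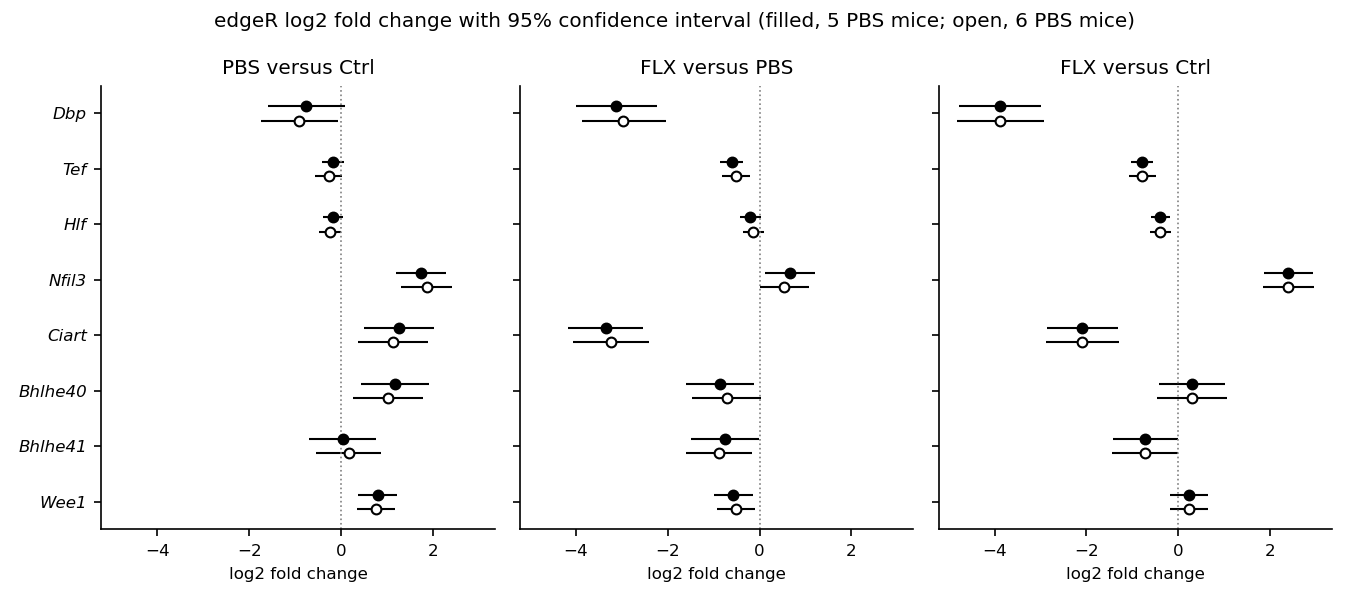
Log2 fold change of each gene in the 3 comparisons, with the 95% confidence interval of edgeR's fit as a line. Filled points are over 5 PBS mice and open points over all 6, and the dotted line marks no difference. The intervals of Dbp and Ciart lie below -1 in both comparisons of FLX, and those of Nfil3 lie above 1 in both comparisons with Ctrl.

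Over the 8 genes, 2 were called higher in PBS versus Ctrl (Nfil3 and Wee1) and 0 lower, where edgeR called 2.14% of all tested genes higher and 1.67% lower. In FLX versus PBS, 0 were called higher and 3 lower (Dbp, Tef and Ciart), against 0.306% and 0.42% of all tested genes. In FLX versus Ctrl, 1 was called higher (Nfil3) and 4 lower (Dbp, Tef, Hlf and Ciart), against 2.08% and 1.59%. The median log2 fold change of the 8 genes was 0.42, -0.68 and -0.55 in these comparisons, and that of all tested genes was -0.01, 0 and -0.01. The groups did not overlap in FPKM for 1, 2 and 4 of the 8 genes, and for 3.52%, 2.92% and 3.4% of all genes in the same order. With all 6 PBS mice, 2, 2 and 4 of the 8 genes were called in either direction, against 4.28%, 0.557% and 1.77% of the 19946 genes then tested. Since the genes were taken with these results known, nothing is read from these counts beyond the values themselves. The 3 comparisons share mice, so the fall of a gene in FLX versus PBS and its rise in PBS versus Ctrl both hold the same PBS values. The balance of higher and lower calls over all genes depended on the scaling or the unit, with 433 higher and 339 lower in PBS versus Ctrl becoming 314 and 449 with upper-quartile scaling. In FLX versus Ctrl the 422 and 322 calls became 340 and 412 with upper-quartile scaling and 979 and 235 with limma on log2(FPKM + 0.1), and in FLX versus PBS the 62 and 85 calls became 192 and 63 with limma.

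The genes upstream of these outputs also differed between the groups. Of 17 core clock genes, all tested, 3 rose and 0 fell in PBS versus Ctrl, with a median log2 fold change of 0.15. These were Per1, by 2.06 (adjusted p = 0.000134), the repressor gene Cry1, by 1.0 (adjusted p = 0.0202), and the kinase gene Csnk1e, by 0.51 (adjusted p = 0.0287). In FLX versus PBS 2 rose and 4 fell, with a median of -0.19, and in FLX versus Ctrl 4 rose and 4 fell, with a median of 0.29. Of all tested genes, 2.14% rose and 1.67% fell in PBS versus Ctrl. The shares were 0.306% and 0.42% in FLX versus PBS, and 2.08% and 1.59% in FLX versus Ctrl. With all 6 PBS mice the counts were 3 higher and 0 lower, 3 and 3, and 3 and 4 in the same order. Of all genes then tested, 4.28%, 0.557% and 1.77% were called in either direction. The list was chosen with earlier results of these data known, so its counts are a description.

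Arntl, the gene of BMAL1, rose in FLX versus PBS by 1.14 on the log2 scale (SE 0.23, adjusted p = 0.0244) and in FLX versus Ctrl by 1.73 (SE 0.22, adjusted p = 0.000458). Ctrl mice averaged 0.932 ± 0.210 FPKM (SD, n = 6), PBS mice 1.41 ± 0.548 (SD, n = 5) and FLX mice 3.29 ± 0.557 (SD, n = 6). Npas2, whose protein can stand in for CLOCK as the partner of BMAL1, rose by 1.33 and 1.39 in the same comparisons (adjusted p = 0.0402 and 0.0126), and Clock rose by 0.35 in FLX versus Ctrl (adjusted p = 0.041), which was lost with all 6 PBS mice. For Cry1 the Ctrl mice averaged 0.840 ± 0.230 FPKM (SD, n = 6), the PBS mice 1.67 ± 0.310 (SD, n = 5) and the FLX mice 3.47 ± 1.24 (SD, n = 6), a rise of 1.94 on the log2 scale in FLX versus Ctrl (adjusted p = 0.000256). Its log2 difference of 0.95 between FLX and PBS mice (adjusted p = 0.0697) was called with all 6 PBS mice (1.01, adjusted p = 0.0432).

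The ROR element repressor genes fell in FLX mice. For Nr1d1 the Ctrl mice averaged 15.0 ± 5.14 FPKM (SD, n = 6), the PBS mice 9.73 ± 2.05 (SD, n = 5) and the FLX mice 3.33 ± 1.26 (SD, n = 6). Its log2 fold changes were -2.24 in FLX versus Ctrl (adjusted p = 0.000147) and -1.63 in FLX versus PBS (adjusted p = 0.00428). PBS replicate 6, at 33.3 FPKM, was the highest mouse for Nr1d1, and with it the latter was -2.10 (adjusted p = 0.0107). Nr1d2 fell by 1.32 and 1.34 (adjusted p = 0.00307 and 0.00693), and both calls held with all 6 PBS mice. Nfil3 and Arntl, both known ROR element targets, had their highest means in FLX mice, where Nr1d1 and Nr1d2 had their lowest. In PBS versus Ctrl, Nfil3 rose by 1.74 while Nr1d2 had 0.02 (adjusted p = 0.974) and Nr1d1 -0.61 (adjusted p = 0.186). PBS replicate 6, the highest mouse for Nr1d1, also had the highest Nfil3 of the PBS mice, 12.3 FPKM. A link between these genes was not tested.

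The PER genes did not move together. Per1 rose from 2.98 ± 0.862 FPKM (SD, n = 6) in Ctrl mice to 12.2 ± 3.79 (SD, n = 5) with PBS, and fell by 1.28 on the log2 scale in FLX versus PBS (adjusted p = 0.0171), to 5.40 ± 1.54 FPKM (SD, n = 6). Per3 fell by 1.06 in FLX versus PBS (adjusted p = 0.0402, lost with all 6 PBS mice) and by 1.26 in FLX versus Ctrl (adjusted p = 0.00606). Per2 was not called in any comparison, and ranged from 1.16 to 2.01 FPKM in Ctrl, 1.83 to 3.95 in PBS and 1.73 to 4.56 in FLX. Fbxl21, which encodes an F-box protein that acts on CRY, fell by 0.80 in FLX versus Ctrl (adjusted p = 0.0151).

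**Figure D4:**
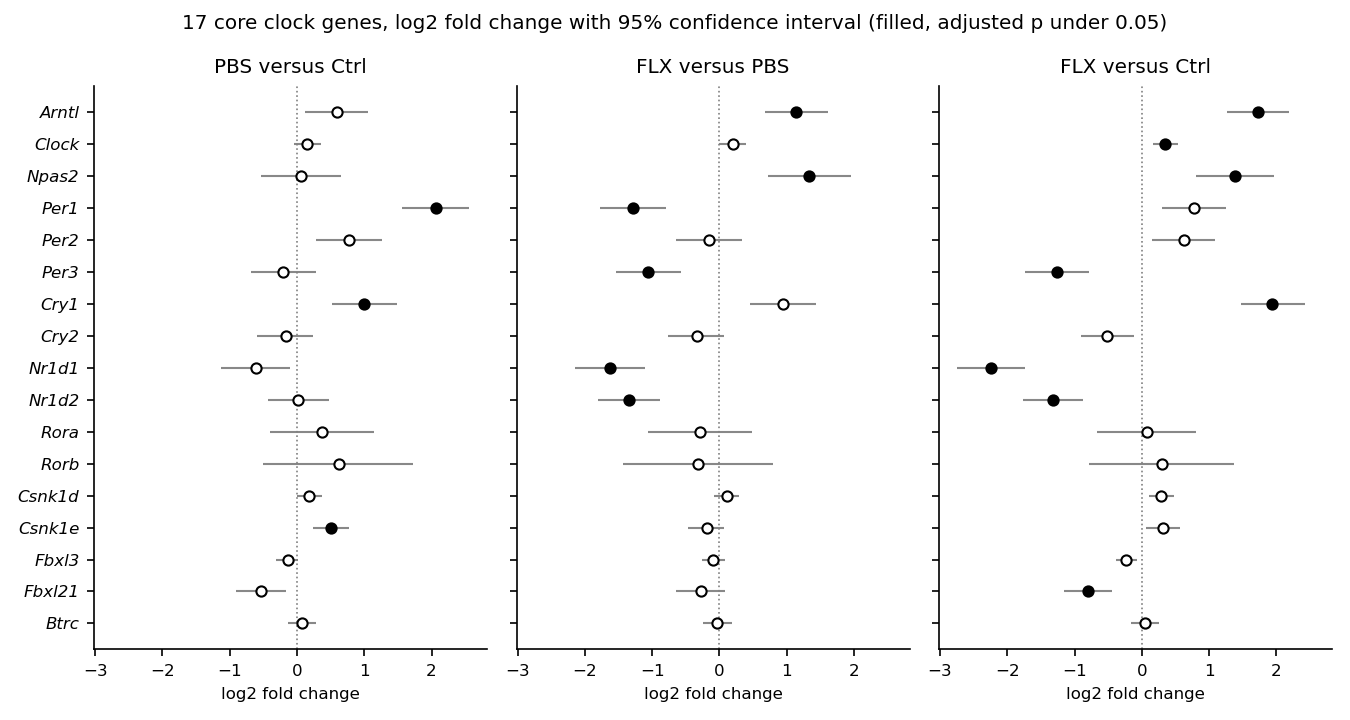
Log2 fold change of 17 core clock genes in the 3 comparisons, over 5 PBS mice, with 95% confidence intervals of edgeR's fit. Filled points passed an adjusted p of 0.05. Arntl and Npas2 lie to the right and Nr1d1, Nr1d2 and Per3 to the left in both comparisons of FLX, while Per1 is right of 0 in PBS versus Ctrl and left of it in FLX versus PBS.

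Within this pattern Dbp and Arntl formed the tightest opposition. Over the 17 mice Pearson's r of log2(FPKM + 0.1) between them was -0.99, the lowest r with Dbp of 11943 genes with a median of at least 1 FPKM, followed by Ypel2 at -0.95 and Timm29 at -0.92. The opposition held between the mice of each group, with r = -0.89 in the 6 Ctrl mice, -0.98 in all 6 PBS mice and -0.85 in the 6 FLX mice. After the group means were taken off, r was -0.94 over 17 mice (Spearman's rho -0.92) and -0.89 without PBS replicates 3 and 4, the mice farthest from the median of Dbp. Ypel2 and Timm29 then had r of -0.65 and -0.56 with Dbp over the 17 mice. PBS replicate 4, with the highest Dbp and Ciart of its group, had the lowest Arntl of all 18 mice, 0.620 FPKM, just below the lowest Ctrl mouse at 0.652. The mice of a group share its treatment and all belong to 1 experiment, and these values are descriptions with no test.

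Ciart followed the same axis in Ctrl and PBS mice, with higher Ciart in PBS replicates 4 and 5, whose Arntl was near that of Ctrl mice. The other PBS mice had more Arntl than any Ctrl mouse. The r of Ciart with Arntl was -0.90 in the 6 Ctrl mice and -0.96 in all 6 PBS mice, and -0.08 in the 6 FLX mice, where Ciart rests on few counts. Spearman's rho was -0.71, -0.83 and -0.14 in the same order. After the group means were taken off, r was -0.80 over 17 mice and -0.61 without PBS replicates 3 and 4. At Arntl levels of 1.15 to 1.18 FPKM, PBS replicate 5 had 2.83 FPKM of Ciart and Ctrl replicates 4 and 6 had 0.679 and 0.659. PBS replicate 5 and the same Ctrl mice had 7.90, 12.7 and 9.39 FPKM of Dbp.

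**Figure D5:**
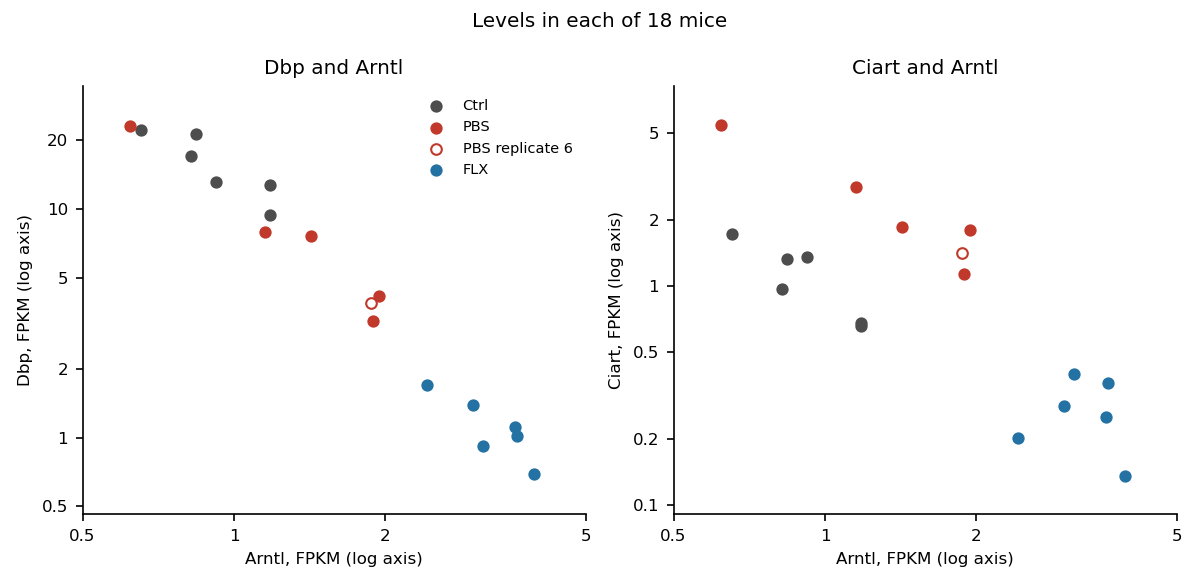
Level of Dbp and of Ciart against that of Arntl in each of 18 mice, in FPKM on log axes. The Dbp points of the 3 groups follow a single falling band from PBS replicate 4 (23.0 FPKM of Dbp, 0.620 of Arntl) to FLX replicate 5 (0.694 and 3.94). For Ciart, PBS replicates 4 and 5 lie above the Ctrl points at like levels of Arntl. The other PBS mice had more Arntl than any Ctrl mouse.

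The genes most like each member over the 17 mice were partly shared, with mt-Te, mt-Nd6 and Nr1d2 each named for more than 1 member. For Dbp they were Per3, Gjb2 and mt-Te, each with r = 0.91, and for Tef they were mt-Nd6, Nr1d2 and mt-Te, each with r = 0.90. For Hlf they were mt-Nd6 (0.84), Fnip2 (0.81) and Hnrnpa3 (0.79). Nfil3 was most like Rrn3 (0.96), Rragc (0.91) and Strn4 (0.90), and Ciart most like Nr1d2 (0.86), Papss2 (0.84) and Por (0.83). Bhlhe41 had no close match, with Cry2 (0.75), Tap1 (0.74) and Iigp1 (0.72) the nearest, and Wee1 was most like Baiap2 (0.89), Nampt (0.85) and Hnrnpll (0.83). Over all 18 mice some of these values were lower, with mt-Te at 0.63 for Tef, Por at 0.60 for Ciart, Hnrnpa3 at 0.65 for Hlf, and Tap1 and Iigp1 at 0.61 and 0.60 for Bhlhe41. These r hold the differences between the group means. Within groups, over the 17 mice, r was lower for all these pairs but Iigp1 with Bhlhe41 (0.74). It ranged from 0.48 for Por with Ciart to 0.89 for Rrn3 with Nfil3.

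Bhlhe40 was nearest to Dusp6 (r = 0.96), Ddit3 (0.92) and Gpt2 (0.90), with r within groups of 0.97, 0.91 and 0.88 and r over 18 mice of 0.86, 0.88 and 0.86. PBS replicates 1 and 4, the mice high in Bhlhe40, were also high in these genes, and r without them was not computed. PBS replicates 1 and 4 had 27.8 and 27.0 FPKM of Dusp6, a phosphatase gene of the ERK pathway, against 5.43 to 11.2 in the other 4 PBS mice. Ddit3, a stress-response transcription factor gene, was at 19.6 and 17.3 FPKM in them, against 2.71 to 6.61. The same mice had the highest sums of the 3 proximal tubule markers in the PBS group, 976 and 981 FPKM, against 792 to 826 in PBS replicates 2, 3 and 5 and 427 in replicate 6. Their neutrophil markers summed to 8.96 and 25.5 FPKM, against 6.57 to 15.1 in PBS replicates 2, 3 and 5, and their brown fat markers to 73.9 and 4.91 FPKM, against 4.27 to 646. The part of these markers in the level of Bhlhe40 was not tested.

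Of 10 listed genes known as targets of the PAR bZIP activators, 9 were tested. Of these, 2 rose in PBS versus Ctrl, where 2.14% of all tested genes did, 1 fell in FLX versus PBS, where 0.42% did, and 0 were called in FLX versus Ctrl with edgeR, the comparison in which Dbp differed most. In that comparison 2 (Alas1 and Por) had an unadjusted p under 0.05 and were called by DESeq2. They differed in direction, with Alas1 at 0.95 on the log2 scale (24.3 against 11.8 FPKM, adjusted p = 0.0661) and all 6 FLX mice above every Ctrl mouse, and Por below 0. Alas1, the rate-limiting enzyme of heme synthesis, rose in PBS versus Ctrl from 11.8 to 49.5 FPKM on average, by 2.10 on the log2 scale (SE 0.30, adjusted p = 0.000612), and was highest in PBS replicates 1 and 4 at 74.9 and 84.6 FPKM. Pdxk, the pyridoxal kinase gene, rose by 0.50 (adjusted p = 0.0192). Por, the electron donor of the cytochromes P450, fell by 0.32 in FLX versus PBS (adjusted p = 0.042, lost with all 6 PBS mice), and in FLX versus Ctrl it had -0.25 (adjusted p = 0.0532). The list's median log2 fold change was 0.23, -0.32 and -0.25 in PBS versus Ctrl, FLX versus PBS and FLX versus Ctrl.

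Other outputs of the clock moved in part. Among 4 listed genes with a rhythm in many organs, Usp2 had 11.4 to 13.7 FPKM in Ctrl, 22.8 to 27.9 in PBS and 12.3 to 17.5 in FLX mice, so that the 5 PBS mice lay above all others, and the left-out PBS replicate 6 had 17.2 FPKM of Usp2. On the log2 scale it differed by 1.06 in PBS versus Ctrl (adjusted p = 8.59e-06) and -0.82 in FLX versus PBS (adjusted p = 0.000808). Tsc22d3 was called too, at 1.09 in PBS versus Ctrl and 1.03 in FLX versus Ctrl (adjusted p = 0.00138 and 0.00315). Of 6 listed kidney genes under clock control, only Sgk1 was called over 5 PBS mice, with a rise of 1.61 in PBS versus Ctrl (adjusted p = 0.000694) and of 1.03 in FLX versus Ctrl (adjusted p = 0.0173). Sgk1 is also a glucocorticoid target. Over all tested genes, 2.14% were called higher in PBS versus Ctrl, 0.42% lower in FLX versus PBS and 2.08% higher in FLX versus Ctrl. Scnn1a, a sodium channel subunit gene, was called in PBS versus Ctrl with all 6 PBS mice (0.47, adjusted p = 0.0454). Among the C/EBP genes, the closest bZIP relatives, Cebpb and Cebpd rose by 1.34 and 1.57 in PBS versus Ctrl (adjusted p = 0.000143 and 0.000487) and were lower with FLX than PBS, at -0.86 and -1.14 (adjusted p = 0.0157 and 0.019), and the other 2 were not called.

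Glucocorticoid-induced genes were higher in PBS than in Ctrl mice, as were Nfil3 and Wee1, and a link between them was not tested. Per1, Tsc22d3 and Sgk1 stand both in this list and in the lists above. All 8 glucocorticoid-induced genes listed (Fkbp5, Tsc22d3, Sgk1, Zbtb16, Klf9, Ddit4, Per1 and Errfi1) rose in PBS versus Ctrl, with a median log2 fold change of 1.42, and all 8 also did over all 6 PBS mice. In FLX versus Ctrl 4 of the 8 rose (Tsc22d3, Sgk1, Zbtb16 and Ddit4), with a median of 0.90. The call of Ddit4 was lost with all 6 PBS mice (adjusted p = 0.0537). In FLX versus PBS 1 fell (Per1), with a median of -0.76. Of all tested genes, 2.14% rose in PBS versus Ctrl, 2.08% rose in FLX versus Ctrl and 0.42% fell in FLX versus PBS. The 8 genes were chosen with earlier results of these data known. Nfil3 had its highest mean in FLX mice, though its difference from PBS was not called (0.66, adjusted p = 0.311). Of this list, Tsc22d3 had like means in FLX and PBS mice, 13.8 and 13.5 FPKM, and the other genes had lower means with FLX than PBS. Summed neutrophil markers differed between the groups as well, but the 6 genes did not all move alike. They summed to 1.29 to 3.18 FPKM in Ctrl, 6.57 to 25.5 in PBS replicates 1 to 5 and 0.219 to 4.77 in FLX mice. S100a8 and S100a9 (and Retnlg with all 6 PBS mice, adjusted p = 0.0401) were called higher in PBS versus Ctrl. S100a8 was called lower in FLX versus PBS. Csf3r averaged 0.161 FPKM in Ctrl, 0.348 in PBS replicates 1 to 5 and 0.301 in FLX mice, and was not called. Ly6g, a defining marker, was at 0 in every FLX mouse and had its highest value, 0.171 FPKM, in a Ctrl mouse. Brown fat markers summed to 0.0945 to 56.1 FPKM in Ctrl, 4.27 to 646 in PBS and 2.03 to 309 in FLX mice, with 0 of 3 called. The part of these markers in the values of the 8 genes was not tested. The libraries of FLX replicates 3 to 6 were shallower. With FLX replicates 1 and 2 alone, Dbp had -3.06 in FLX versus PBS and Ciart -3.01 (adjusted p = 0.289 and 0.223), and with FLX replicates 3 to 6 alone they had -3.15 and -3.57 (adjusted p = 0.0178 and 0.00664). Mean levels of Bhlhe41 and Wee1 differed more between these mice, at 0.115 and 2.21 FPKM in FLX replicates 1 and 2 and 0.266 and 3.11 in FLX replicates 3 to 6.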

How the data were processed

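Poly(A) RNA of right kidneys was sequenced in read pairs from a strand-marking (dUTP) library of each of 18 mice. The authors cleaned reads with fastp, aligned them with HISAT-3N to GRCm38 and assembled transcripts with StringTie. The submitters' processing notes also name cutadapt 1.9, HISAT2 2.0.4, StringTie 1.3.4d, UMI-tools, DESeq2 and edgeR. The deposited table gives 1 FPKM value and 1 estimated count per gene and mouse. The counting tool and its strand setting were not found in these sources. Deposited estimated counts were all whole, yet they held 13084 values of 4 against 8741 of 3 and 4863 of 5, an excess of 4, and were therefore handled as estimates and not as raw fragment counts.

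Counts were tested in R 4.3.3 with edgeR 4.0.16 (quasi-likelihood test, two-sided, TMM scaling, filterByExpr with a minimum count of 10, 1 model of 3 groups over 17 mice), with Benjamini-Hochberg adjustment over 20251 genes and a threshold of 0.05. The standard error is the size of the log2 fold change divided by the square root of F. Single differences were also tested by exact permutation of mean log2(FPKM + 0.1), whose smallest p is 0.00216. Alternatives were all 6 PBS mice, DESeq2 1.42.0, other scalings, no filter, limma 3.58.1 on FPKM, 2 groups alone, a replicate block, each mouse left out, and, chosen after seeing the data, FLX replicates 3 to 6 only, counts divided by 4, and no PBS replicates 1 and 4. The fits were tested on simulated data. The 8 genes and all lists were chosen with earlier results of these data known. Of the other lists, genes were named where called in at least 1 comparison or where they act directly on the 8 genes, and genes alike by the highest r. The p values measure the spread between mice of 1 experiment. No 2 libraries held the same counts in nearly all genes (highest r of log2 counts 0.961). Listed for cell type were also macrophage, white fat and adrenal cortex markers, of which 0 were called. The pairing of mice by replicate number was checked and is described with the alternatives. Of the core clock list, 1 gene is not reported here.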

Additional observations from a re-analysis of the deposited data

Results flagged for a closer look

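Each of the 8 genes was checked in each group of 6 mice for a highest or lowest mouse far from the rest (Dixon's criterion at 95%). Of the 24 sets, 4 held such a mouse, each of them the highest of its set. The criterion's rate of about 1 in 20 holds for independent, normally distributed values. These sets are FPKM without a log, of related genes in the same mice. The count is therefore a description and is not compared with chance. PBS replicate 4 had 23 FPKM of Dbp, against 3.23 to 7.9 in the other 5 PBS mice. The same mouse had the highest Ciart and Wee1 of the group. Ctrl replicate 6 had 4.43 FPKM of Nfil3, against 1.65 to 2.04 in the other Ctrl mice, and Ctrl replicate 3 had 37.2 FPKM of Tef, against 25.1 to 29.6. FLX replicate 5 had 0.493 FPKM of Bhlhe41, against 0.0959 to 0.242 in the other FLX mice.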

How the results depend on the processing

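Each result was recomputed under 31 alternatives. The calls of Nfil3 against Ctrl held in all of them, and those of Dbp and Ciart in both comparisons of FLX were lost only with FLX replicates 1 and 2 alone. In PBS versus Ctrl the number of the 8 genes called was 2, and it was 4 with DESeq2 (Bhlhe40 and Ciart added) and 1 (Nfil3) with no filter on low counts, with limma on log2(FPKM + 1), with only the 2 groups compared and without PBS replicates 1 and 4. With a mouse left out it ranged from 1 (without Ctrl replicate 1, 2, 4 or 5 or PBS replicate 1) to 4 (without PBS replicate 3). With FLX replicates 1 and 2 only, 0 genes were called in FLX versus PBS and 1 (Nfil3) in FLX versus Ctrl, a setting with fewer samples. Without PBS replicates 1 and 4, the log2 fold change of Bhlhe40 turned to -0.07 in PBS versus Ctrl and to 0.37 in FLX versus PBS. That of Bhlhe41 in PBS versus Ctrl turned to -0.27 in the same setting and to -0.01 with upper-quartile scaling, and ranged from -0.15 to 0.20 with a mouse left out. That of Wee1 in FLX versus Ctrl turned to -0.05 with FLX replicates 1 and 2 only. None of these reversed values was called, and the cause was not tested. Counts of Ciart in FLX mice (19 to 83) and the low level of Bhlhe41 limit the precision of both.

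Mice with the same replicate number did not deviate together (median r of -0.0308 over 16 pairs, 2 of them above 0.1, and 4 of 17 mice correlated best with their own number), so the number is only a name. With the replicate block the log2 fold change in FLX versus PBS was -2.82 for Dbp (adjusted p = 0.0209), -0.60 for Tef (adjusted p = 0.0474) and -3.27 for Ciart (adjusted p = 0.0145), and the call of Hlf in FLX versus Ctrl was lost (-0.39, adjusted p = 0.101). Over all genes the block gave 419, 67 and 258 calls in PBS versus Ctrl, FLX versus PBS and FLX versus Ctrl, against 772, 147 and 744 without it. In the same order DESeq2 gave 1424, 498 and 1645 calls, the fit with no filter 542, 88 and 378, limma on log2(FPKM + 0.1) 770, 255 and 1214, FLX replicates 3 to 6 only 551, 38 and 179, FLX replicates 1 and 2 only 612, 0 and 4, the fit of only the groups compared 496, 95 and 717, no PBS replicates 1 and 4 209, 35 and 678, and all 6 PBS mice 853, 111 and 354. With a mouse left out the counts ranged from 388 to 1662, 47 to 250 and 271 to 3099, each highest without Ctrl replicate 3.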

Other observations

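Rora, the gene of a ROR element activator, was chosen for mention after its values were seen. Ctrl replicate 6, the Ctrl mouse with the highest Nfil3 and the lowest Dbp, had 0.257 FPKM of Rora, against 2.16 to 3.81 in the other 5 Ctrl mice and 1.76 to 3.92 in all defeated mice. Nr1d1 in PBS replicate 6 was 33.3 FPKM, against 7.27 to 12.3 in the other 5 PBS mice, although Tef and Hlf were at their lowest among the PBS mice in it, at 15.4 and 6.71 FPKM.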
